A study of Mus musculus with 31 samples.

Results

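H3K27me3 peaks of mouse primordial germ cells at embryonic day E10.5 were compared with those of male germ cells at E13.5, when the cells lie in the fetal testis. The comparison took every H3K27me3 peak list of both groups, 3 of E10.5 and 3 of E13.5 male cells, which are 6 of the 31 samples of the series and hold 45381 nuclear peaks. Both groups were wild-type cells of a C57BL/6 x GOF18delta_PE-EGFP cross, which carries an EGFP reporter, and were sorted by FACS. At E10.5 several embryos were pooled for the sort and no sex is given for them, so stage and sex composition cannot be told apart. Each library was made from 1000 cells by ultra-low-input native ChIP, in which unfixed chromatin is cut with micrococcal nuclease. The lists hold no gene expression, so the cell identity and the sex in the labels could not be checked against marker genes. The labels do not say whether replicates came from separate animals, and p-values speak of the spread between libraries only, which may be technical.

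H3K27me3 is the trimethyl mark that Polycomb repressive complex 2, with its enzyme EZH2 or EZH1, places on histone H3. Polycomb repressive complex 1 binds the mark, and genes under it tend to stay silent. Well-known targets are developmental regulators with CpG-rich promoters, the Hox clusters among them, which the mark can cover as one continuous domain. Primordial germ cells are the precursors of sperm and eggs. Between these stages they reach the gonad and lose most of their DNA methylation, and the study asked how chromatin changes over that time.

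The lists differed widely in size, and sequencing depth is unknown because they hold no read counts. E10.5 replicates 1, 2 and 3 had 11330, 1703 and 23141 peaks. Male replicates 1, 2 and 3 had 3522, 359 and 5326 peaks. The 359-peak list of male replicate 2 stood apart from the other lists in its placement as well as in its size. H3K9me3 peaks of the matching male library, which covered 46.9 Mb, took in 45.6% of its length. In E10.5 replicate 2 and male replicates 1 and 3 the shares were 5.02, 4.53 and 2.11%, with 46.6, 78.9 and 25.7 Mb of H3K9me3. In E10.5 replicates 1 and 3 they were 0.750 and 0.0426%, but only 2.00 and 0.441 Mb of H3K9me3 was there to overlap. H3K9me3 is the mark of heterochromatin and repeats. A single 30-kb stretch at the start of chromosome 9 (3000001 to 3030000, coordinates in mm9 throughout) made up 12.0% of the length of male replicate 2, against 0.0203 to 0.918% in the others. The main group values are therefore given with and without that list. Sample numbers in the peak names of replicates 1 and 2 differ by 100 in both groups, and the labels do not say whether those libraries share cells. Of the length of E10.5 replicate 2, 91.5% lay inside replicate 1 and 93.4% inside the longer replicate 3, which does not answer that question. E10.5 replicate 3 was called against an input named for H3K9me3, per its peak names, and the part of that control in the values of that list was not tested.

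H3K27me3 peaks covered more of the genome in most E10.5 lists than in male lists, but one E10.5 list lay within the male range. After merging overlaps, E10.5 lists covered 19.9, 2.08 and 35.5 Mb. Male lists covered 2.47, 0.159 and 3.99 Mb. The means were 19.2 ± 16.7 Mb (SD, n = 3) and 2.21 ± 1.93 Mb (SD, n = 3), a ratio of 8.68. An exact two-sided permutation test over the 3 and 3 lists gave p = 0.3 (adjusted p = 0.3 over the 3 tests of list values), where the smallest p such a design can give is 0.1. The difference was smaller than the range over the E10.5 lists. The male mean was 3.23 ± 1.07 Mb (SD, n = 2) without male replicate 2.

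Peak width separated the groups in every list. The median peak was 923.5, 827 and 728 bp wide in E10.5 replicates 1 to 3. It was 493.5, 283 and 553 bp in the male replicates. The lowest E10.5 median was above the highest male median. The means were 826 ± 97.8 bp and 443 ± 142 bp (SD, n = 3 each), and the exact two-sided permutation p was 0.1, the smallest possible here (adjusted p = 0.15). Leaving out male replicate 2 changed the male mean to 523 ± 42.1 bp (n = 2). E13.5 female lists, from ovarian germ cells of the same stage, had medians of 431, 510 and 469 bp, within the range of the male lists.

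**Figure D1:**
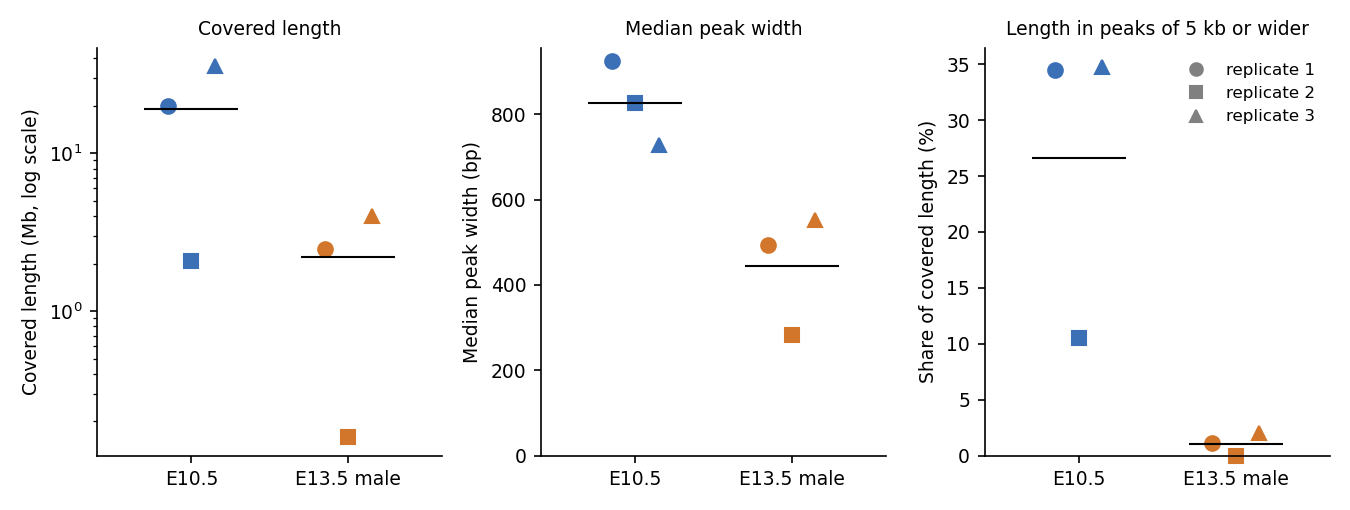
Covered length (Mb, log axis), median peak width (bp) and share of covered length in peaks of 5 kb or wider (%) for each H3K27me3 list, with marker shape for the replicate and a line at the group mean. Covered length overlaps between the groups (2.08 Mb in E10.5 replicate 2, 3.99 Mb in male replicate 3), while median width and the share in wide peaks do not.

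Wide peaks, the shape of continuous Polycomb domains, made up more of the E10.5 lists than of the male lists, where the peaks as called were almost all narrower than 5 kb. Peaks of 5 kb or wider held 34.5, 10.51 and 34.7% of covered length in E10.5 replicates 1 to 3. They held 1.12, 0 and 1.99% in the male replicates. The group means were 26.6 ± 13.9% and 1.04 ± 1.00% (SD, n = 3 each), with no overlap. The exact two-sided permutation p was again 0.1 (adjusted p = 0.15). The male mean was 1.56 ± 0.615% (n = 2) when male replicate 2 was left out, and the smallest p that 3 against 2 lists can give is also above 0.05. In number, E10.5 lists had 748, 35 and 1340 peaks of 5 kb or wider, and male lists had 5, 0 and 13. Peaks of 10 kb or wider numbered 200, 1 and 370 at E10.5, and no male list had one.

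The separation in wide peaks depended on how gaps were treated. When peaks under 1 kb apart were joined, stretches of 5 kb or wider held 40.6, 10.51 and 52.7% of the length in E10.5 replicates 1 to 3 and 4.73, 13.6 and 8.82% in the male replicates. Joining changed nothing in E10.5 replicate 2, which had no such gaps, and that list then fell within the male range. The means were 34.6 ± 21.7% and 9.04 ± 4.43% (SD, n = 3 each), with an exact two-sided permutation p of 0.2. The male value of 13.6% came from 3 stretches in replicate 2. Over male replicates 1 and 3 the mean was 6.77 ± 2.89% (n = 2), and both were below every E10.5 list. Median width did not overlap after joining, with group means of 888 and 454 bp.

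The short end of the width range moved the other way. Peaks under 500 bp held 5.33, 9.21 and 6.49% of E10.5 length. In male replicates 1, 2 and 3 they held 21.6, 46.9 and 18.2%. The width at which wider peaks make up 50% of the list was 3217, 1872 and 3089 bp at E10.5 and 952, 564 and 1013 bp in male cells. E10.5 replicate 2 covered less than male replicates 1 and 3, and its peaks were wider by each of these measures. That list differed from the other E10.5 and male lists in further ways. Its lowest peak score (19.9) was the highest among them. Its smallest peak was 259 bp wide, against 146 to 213 bp in the others, and it alone had no gaps under 1 kb. The part of these differences in its widths was not tested.

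**Figure D2:**
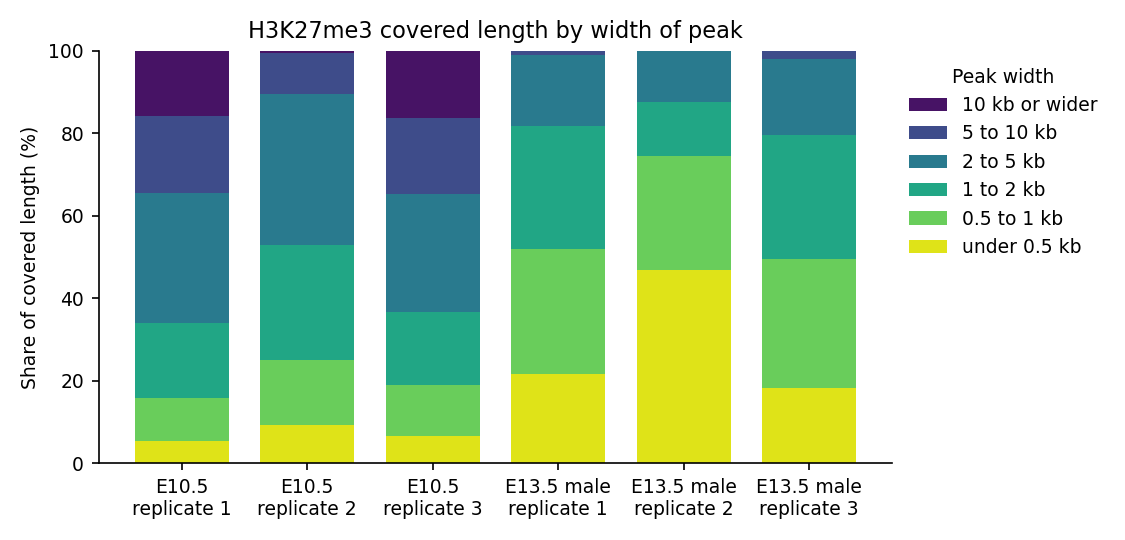
Share of covered length (%) in each class of peak width, for the 6 lists. Peaks of 5 kb or wider take 10.51 to 34.7% of the E10.5 bars and at most 1.99% of the male bars, and peaks under 0.5 kb take at least 18.2% of each male bar.

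The widest peaks at E10.5 were in 1 place in the 2 longer lists. The widest peak of E10.5 replicate 1 spanned 43733 bp on chromosome 15 (102767568 to 102811300). That of E10.5 replicate 3 spanned 42589 bp on the same stretch (102775678 to 102818266). The widest of replicate 2 was 11146 bp, on chromosome 19 (45226437 to 45237582). The widest male peaks were 5827 bp on chromosome 14 (13174305 to 13180131), 4666 bp on chromosome 9 (3000105 to 3004770) and 7253 bp on chromosome 9 (74704484 to 74711736). Each male maximum was shorter than each E10.5 maximum. After peaks within 1 kb of each other were joined, the longest stretch was 118347, 11146 and 134858 bp at E10.5 and 8203, 10138 and 18275 bp in male cells, and E10.5 replicate 2 then lay within the male range.

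The difference in width remained when each list was cut to the same number of peaks. With the 359 highest-scoring peaks of each list, by the authors' score in column 9, the medians were 373, 456 and 1989 bp at E10.5 and 304, 283 and 284 bp in male cells. With the top 1703 peaks, and without male replicate 2, they were 1571, 827 and 2958 bp against 449 and 552 bp. In those top 1703 peaks, 63.6, 10.51 and 76.1% of E10.5 length lay in peaks of 5 kb or wider. The corresponding male shares were 1.36 and 3.83%. The groups did not overlap in either cut. The top 359 peaks were 1.55% of E10.5 replicate 3 and 100% of male replicate 2, and equal numbers of peaks do not make depth equal.

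Most male H3K27me3 lay where E10.5 lists had it. Of the male length, 84.4, 85.9 and 78.9% in replicates 1, 2 and 3 was inside a peak of at least 1 E10.5 list, and these lists together cover 1.50% of the genome. Against single E10.5 lists the share followed their length: for male replicate 1 it was 70.6, 19.8 and 79.5% in E10.5 replicates 1 to 3, and for male replicate 3 it was 61.1, 14.5 and 75.4%. In the other direction, 17.9, 41.4 and 12.1% of the length of E10.5 replicates 1, 2 and 3 was inside a male peak. Between the male lists, 32.4% of replicate 1 lay inside replicate 3, and 20.1% of replicate 3 inside replicate 1. These shares are above those with E10.5 replicate 2 and below those with the 2 longer E10.5 lists. The lists differ in length, and no test was made of these shares.

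Many male peaks were short segments within wider peaks of the 2 longer E10.5 lists. Of the 3522 peaks of male replicate 1, 52.6% lay wholly inside a peak of E10.5 replicate 1 and 62.0% inside one of replicate 3. For the 5326 peaks of male replicate 3, these shares were 43.4 and 58.1%. The enclosed male peaks had medians of 570 to 608 bp in these 4 pairs, and the E10.5 peaks around them had medians of 5750 to 7487 bp. Male peaks that touched no peak of the E10.5 list were shorter than those that did: their medians were 299 to 418 bp, against 613 to 659 bp. Male replicate 2 had 64.9% of its peaks inside E10.5 replicate 1 and 41.2% inside replicate 3, with medians of 289 and 396 bp. Far fewer male peaks lay inside peaks of the short E10.5 replicate 2, at 8.75, 26.5 and 5.78% for male replicates 1 to 3.

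Peaks found in both longer male lists were more often in E10.5 territory. Male replicate 1 had 1504 peaks that overlapped a peak of male replicate 3, which is 42.7% of its list, and 90.9% of these touched an E10.5 peak. Of its other 2018 peaks, 75.6% did. Male replicate 3 likewise had 1504 shared peaks, 28.2% of its list, with 91.0% touching an E10.5 peak against 72.0% of the other 3822. The shared peaks were also the wider ones, with medians of 734 and 811.5 bp against 367 and 496 bp.

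The wider an E10.5 peak was, the more often a peak of male replicate 1 or 3 overlapped it. In E10.5 replicate 1, male replicate 1 overlapped 6.50% of the 6015 peaks under 1 kb, 28.0% of the 2037 peaks of 2 to 5 kb and 89.0% of the 200 peaks of 10 kb or wider. Male replicate 3 overlapped 7.83, 38.1 and 96.5% of the same classes. In E10.5 replicate 3 the shares rose from 1.89 to 79.2% for male replicate 1 and from 3.42 to 87.0% for male replicate 3. A wider peak offers more length to overlap, and the share of length covered is the measure that allows for this. It rose too: in E10.5 replicate 1 it went from 3.75% of the length of peaks under 1 kb to 18.4% of that of peaks of 10 kb or wider for male replicate 1, and from 4.60 to 24.0% for male replicate 3. In E10.5 replicate 3 it went from 1.24 to 14.2% and from 2.28 to 19.6%. Male replicate 2 followed this order only in part. In E10.5 replicate 1 it overlapped 2.11, 0.751, 2.01, 4.01 and 22% of the peaks, from the narrowest class to the widest. In E10.5 replicate 3 its share of peaks rose with each class, from 0.292 to 15.9%. The share of length it covered was 1.09% under 1 kb and 0.909% at 10 kb or wider in E10.5 replicate 1. In E10.5 replicate 3 these shares were 0.191 and 0.644%.

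The E10.5 peaks that male peaks overlapped were covered only in part. Where a male peak overlapped an E10.5 replicate 1 peak of 10 kb or wider, male peaks covered 20.3% (male replicate 1) or 24.7% (male replicate 3) of its length. They did so with a mean of 3.32 or 3.88 separate peaks. The sparse list of male replicate 2 overlapped 22% of these peaks and covered 3.4% of the length of those it overlapped. In E10.5 replicate 2, whose single peak over 10 kb makes that class uninformative, male replicates 1 and 3 each overlapped 94.1% of the 34 peaks of 5 to 10 kb and covered 32.3 and 36.8% of their length.

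**Figure D3:**
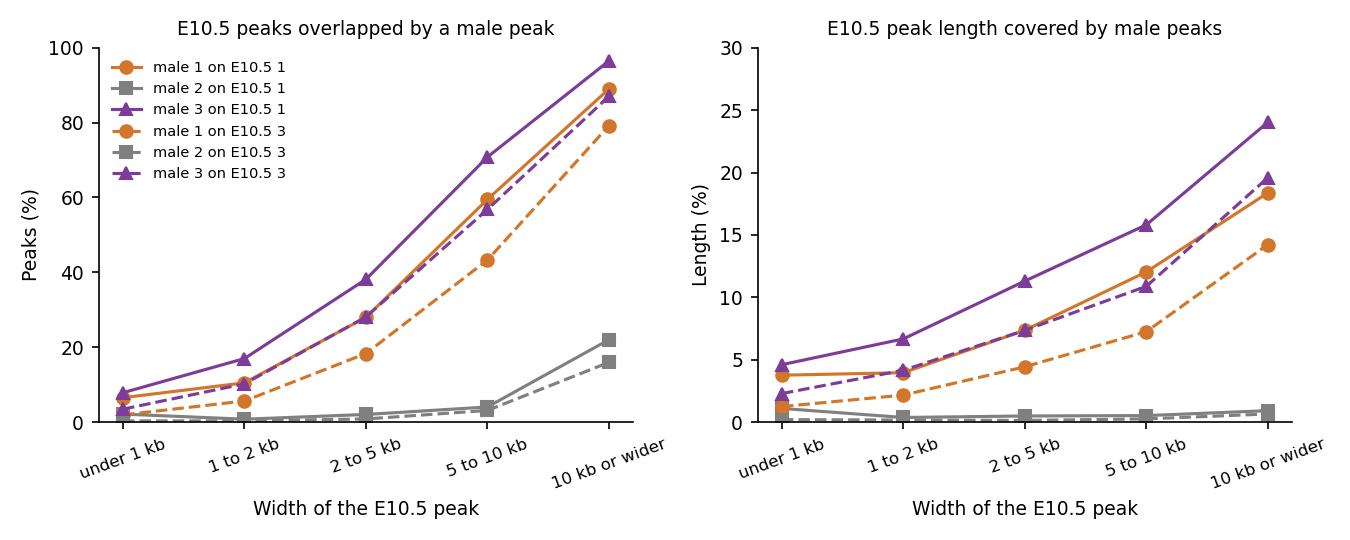
Share of E10.5 peaks overlapped by a male peak (left, %) and share of E10.5 peak length covered by male peaks (right, %), by width of the E10.5 peak, for E10.5 replicate 1 (solid) and replicate 3 (dashed). Both measures rise with width for male replicates 1 and 3 (to between 79.2 and 96.5% of peaks and between 14.2 and 24.0% of length). Male replicate 2 is the lowest male list on each E10.5 list and reaches at most 22% of peaks.

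The genome was next cut into 10-kb bins, and a list was said to hold a bin with at least 1 kb of it in peaks. E10.5 lists held 5164, 651 and 8658 bins, and male lists held 793, 17 and 1257. Of the 9104 bins held by any of the 6 lists, 210 were held by all E10.5 lists and by no male list, which is 2.31% of them. The reverse pattern, all male lists and no E10.5 list, was found in 3 bins (0.033%), and 9 bins (0.0989%) were held by all 6 lists. Without male replicate 2 the first count stayed at 210, the second was 20 (0.22%) and the third was 246 (2.7%). These 246 bins were 38.9% of the 633 bins that all E10.5 lists held and 46.9% of the 525 that both remaining male lists held. The count of E10.5-only bins depended on the E10.5 list with the fewest peaks: without E10.5 replicate 2 it was 3624. It also depended on list length: with the 359 highest-scoring peaks of each list, 1 bin was E10.5-only and 3 were male-only, and with the top 1703 of all lists but male replicate 2 the counts were 211 and 25.

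With all peaks of each list, most male bins were also held by an E10.5 list. Of the 525 bins held by both male replicates 1 and 3, 505 (96.2%) were held by at least 1 E10.5 list and 486 by at least 2. Of the 1525 bins held by any male list, 90.6% were held by an E10.5 list. Only 15.4% of the 8961 bins held by any E10.5 list were held by a male list. Of the 15 bins held by all male lists, 12 (80%) were held by an E10.5 list. These shares changed with the number of peaks taken. With the top 1703 peaks, and without male replicate 2, 25 of the 159 bins held by both male lists were in no E10.5 list. With the top 359 peaks of each list, 3 of the 12 bins held by all male lists were in none. The more E10.5 lists held a bin, the more often male lists did. Of the 633 bins in all 3 E10.5 lists, 33.2% were in neither of male replicates 1 and 3, 28.0% were in 1 and 38.9% in both. Of the 4082 bins in a single E10.5 list, 96.6% were in neither and 0.465% in both.

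**Figure D4:**
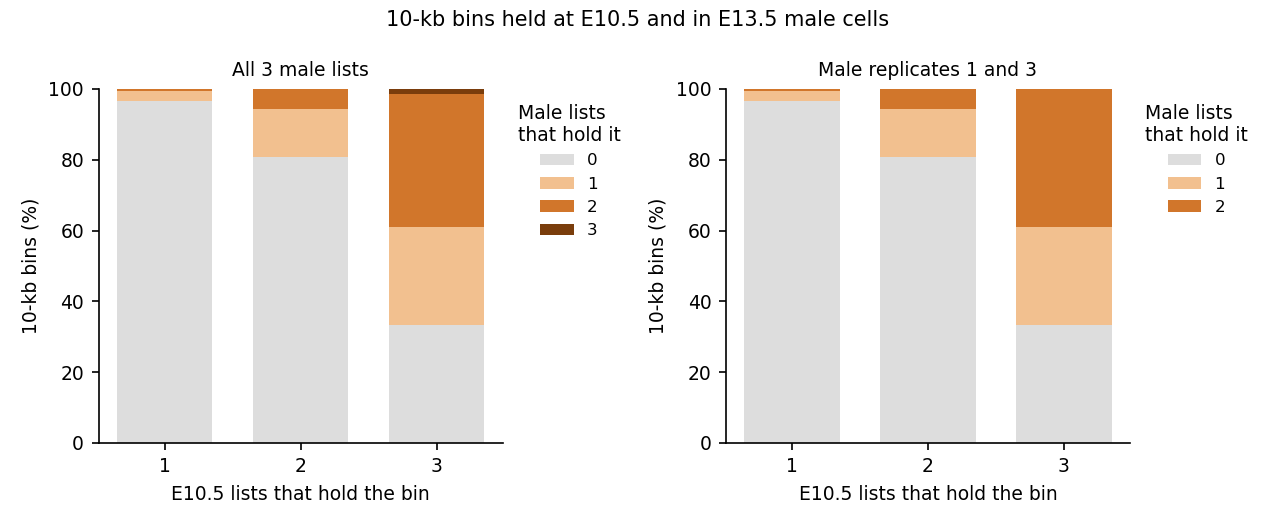
Share of 10-kb bins (%) held by 0, 1, 2 or 3 male lists, for bins held by 1, 2 or 3 E10.5 lists, with all male lists (left) and with male replicates 1 and 3 (right). The part held by no male list is 96.6% of bins in 1 E10.5 list, 80.7% of those in 2 and 33.2% of those in all 3.

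Many of the 210 E10.5-only bins kept some mark in male cells below the minimum. In 76 of them no male list had any peak, and in 134 a male list had some length under 1 kb. The closest of these had 0.996 kb in a male list, and the closest bin just outside the class had 1.003 kb. In the E13.5 female lists, 130 of these bins were held by no list, 65 by some and 15 by all. Of the 210 bins, 208 were autosomal and 2 were on X, and they formed 197 separate regions, 187 of which were a single bin.

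The 5 regions given here are the longest, with ties in length broken by the mean length in peaks at E10.5. The first lay on chromosome 4 (88920001 to 88960000). E10.5 replicates 1 to 3 had 23.8, 11.2 and 32.5 kb in peaks there, and male replicates had 0.593, 0 and 0.451 kb. On chromosome 3 (128910001 to 128940000) E10.5 lists had 20.4, 7.42 and 20.7 kb and no male list had any, while female lists had 3.6, 4.63 and 3.52 kb. On chromosome 14 (49280001 to 49300000) E10.5 values of 15.1, 6.21 and 18.6 kb stood against 0.844, 0 and 0 kb in male and 3.57, 8.57 and 3.63 kb in female lists. Chromosome 1 (78200001 to 78220000) had 15.5, 6.62 and 18.6 kb at E10.5 and 0.740, 0.276 and 0 kb in male cells. Chromosome 6 (85130001 to 85150000) had 12.8, 7.79 and 14.4 kb at E10.5 and 1.35, 0 and 0.720 kb in male cells, the 1.35 kb being spread over both of its bins. Female lists had 2.15, 1.63 and 2.73 kb in the region on chromosome 4 and 0.38, 2.36 and 2.91 kb in that on chromosome 1. In that on chromosome 6 they had 0, 1.38 and 0 kb. In each of these 5 regions the lowest E10.5 value was above the highest male value, which the choice of the regions fixes. With the 359 highest-scoring peaks of each list alone, the differences of male from E10.5 means shrank to -2.06 kb on chromosome 4, -1.68 kb on chromosome 3, 0 kb on chromosome 14 and -4.03 kb on chromosome 6, and on chromosome 1 the male mean was higher by 0.092 kb.

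Regions held in male cells and by no E10.5 list were few and short. The longest, on chromosome 10 (57680001 to 57700000), had 6.60, 4.07 and 8.23 kb in male replicates 1 to 3 and no peak in any E10.5 list. Female lists had 5.60, 10.4 and 8.95 kb there, so the region was marked in both sexes at E13.5. A bin on chromosome 8 (56200001 to 56210000) followed the same order, with 1.43, 1.15 and 4.99 kb in male lists, 0, 0 and 0.593 kb at E10.5, and 2.58, 3.88 and 3.61 kb in female lists. When male replicate 2 was left out there were 19 such regions, 18 of them a single bin. Of their 20 bins, 10 had no E10.5 peak and 10 had some E10.5 peak length below the minimum, up to 0.952 kb. The 3 further bins given here are those with the highest mean length in peaks in male replicates 1 and 3 among the bins not yet named. A bin on chromosome 15 (91730001 to 91740000) had 2.53, 0.933 and 2.50 kb in male lists and none in any E10.5 or female list. A bin on chromosome 11 (109150001 to 109160000) had 1.45, 0 and 3.23 kb in male lists, 0, 0 and 0.557 kb at E10.5 and none in female lists. A bin on chromosome 6 (135680001 to 135690000) had 1.71, 0 and 2.44 kb in male lists and 0, 0 and 0.399 kb at E10.5, and 1 female list had 1.28 kb.

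In the longest regions held at both stages, peaks covered less on average in male cells. Ties in length were broken by the mean at E10.5, which favours high E10.5 values. The order was not tested over all regions held at both stages. When male replicate 2 was left out, the longest such region was the stretch on chromosome 15 (102750001 to 102810000) that also had the widest E10.5 peaks. E10.5 lists had 58.2, 24.4 and 58.9 kb of its 60 kb in peaks. Male replicates 1 and 3 had 24.5 and 26.4 kb, and male replicate 2 had 2.96 kb. On chromosome 2 (74500001 to 74540000) E10.5 values of 37.1, 12.9 and 38.2 kb stood against 13.4, 0.622 and 15 kb in male replicates 1 to 3. On chromosome 6 (52170001 to 52210000) they were 34.6, 14.5 and 37.9 kb against 6.61, 0.751 and 10.7 kb. E10.5 replicates 1 and 3 were far above every male list in these 3 regions, whereas E10.5 replicate 2 was within the male range in the first 2 and above it in the third. With the 359 highest-scoring peaks of each list the difference of the means in the third was -1.84 kb.

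The other regions named here that were held at both stages had the same order of the means. Chromosome 8 (87290001 to 87320000) had 29.1, 8.32 and 29.9 kb at E10.5 and 6.97, 0 and 8.75 kb in male cells. Chromosome 9 (91260001 to 91290000) had 25.1, 6.95 and 28.4 kb and 6.22, 1.29 and 9.09 kb. In both, E10.5 replicate 2 was below male replicate 3. With all 6 lists, the longest region held by every one was the start of chromosome 9 (3000001 to 3030000), with 21.2, 19.1 and 7.20 kb at E10.5 and 11.02, 19.1 and 8.46 kb in male cells. It is also the region that made up 12.0% of male replicate 2. The next were single bins. On chromosome 5 (120880001 to 120890000) lists had 10.0, 4.18 and 10.0 kb at E10.5 and 2.08, 1.07 and 7.39 kb in male cells. On chromosome 1 (173000001 to 173010000) they had 7.04, 5.24 and 7.60 kb and 5.71, 2.69 and 4.12 kb, the nearest to equal amounts of the single bins named. A further bin on chromosome 1 (74850001 to 74860000) had 8.32, 1.79 and 9.25 kb and 1.86, 1.17 and 4.94 kb. The last, on chromosome 9 (91270001 to 91280000), had 9.56, 2.93 and 10.0 kb and 4.10, 1.29 and 4.18 kb. In the last 2 of these bins, too, the order of the means turned with the 359 highest-scoring peaks, by 0.0093 and 0.063 kb in favour of male cells, and it did so by the same 0.063 kb in the longer region around the last.

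To put lists of unlike length on one scale, the share of each list's own length in every 1-Mb bin was tested, in ppm (1000 ppm is 0.1% of the list). Such shares do not remove list length. A single smallest peak is 1126 ppm of male replicate 2 and 4.11 ppm of E10.5 replicate 3. limma, fitted on log2(ppm + 100) over all 9 H3K27me3 libraries, the female ones included, called 12 of 1743 bins between male and E10.5 cells at an adjusted p under 0.05, which is 0.688% of them. The share was higher in male cells in 2 bins (0.115%) and lower in 10 (0.574%), while 235 bins had an unadjusted p under 0.05. The median log2 change over all bins was -0.43. It moved with the setting, to -0.15 without male replicate 2 and to -1.3 with a pseudocount of 10 ppm. With male replicate 2 left out, 8 of 1739 bins were called (0.46%), 7 of them among the 12. Leaving out E10.5 replicate 1 or E10.5 replicate 3 left no bin called, with 121 and 127 bins at an unadjusted p under 0.05. A fit of the 6 libraries alone called none, with 130 at an unadjusted p under 0.05, and neither did a pseudocount of 10 ppm, with 188. A pseudocount of 1000 ppm called 15 bins, 0 higher and 15 lower in male cells.

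The lowest adjusted p belonged to a bin of chromosome 18 (66000001 to 67000000), where the share was lower in male cells. E10.5 replicates 1 to 3 had 4127, 3120 and 3795 ppm of their length there, and male replicates had 101, 0 and 87.2 ppm. The change was -4.59 ± 0.509 (log2, SE), with an adjusted p of 0.00466 in limma, and the groups did not overlap. Female lists had 5029, 6597 and 4408 ppm, and the difference of male from female lists was -5.11 ± 0.509 (adjusted p = 0.00169), the only one of the 12 bins where the difference between the sexes passed the test. The change from E10.5 was -4.27 (adjusted p = 0.00324) without male replicate 2.

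Both bins with a higher male share contain the male-only regions described above. The bin on chromosome 10 (57000001 to 58000000) had 0, 0 and 47.1 ppm at E10.5 and 2667, 28447 and 2468 ppm in male replicates 1 to 3, a change of 5.69 ± 0.864 (log2, SE; adjusted p = 0.0347 in limma). The high value is that of male replicate 2. The change was 4.55 without it (adjusted p = 0.00324). The bin on chromosome 8 (56000001 to 57000000) had 0, 0 and 16.7 ppm at E10.5 and 576, 7256 and 1305 ppm in male cells, a change of 4.18 (adjusted p = 0.0493). It was 3.21 (adjusted p = 0.0473) without male replicate 2. Neither bin was called with a pseudocount of 1000 ppm (adjusted p = 0.182 and 0.320). Female lists had 4489, 2212 and 2336 ppm in the first bin and 1929, 781 and 921 ppm in the second.

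The other 9 called bins had small shares at E10.5 and none or almost none in male lists. On chromosome 17 (24000001 to 25000000) E10.5 lists had 807, 576 and 950 ppm and no male list had a peak, a change of -3.11. On chromosome 7 (148000001 to 149000000) they had 576, 1585 and 517 ppm against 0, 0 and 52.4 ppm, a change of -2.95. On chromosome 8 (24000001 to 25000000) they had 1004, 722 and 906 ppm against 129, 0 and 0 ppm, a change of -2.88. The remaining 6 bins had no peak in any male list. They start at 80000001 on chromosome 8, 56000001 on chromosome 19, 74000001 on chromosome 11, 147000001 and 131000001 on chromosome 7, and 103000001 on chromosome 3. Their E10.5 means ran from 574 to 649 ppm and their changes from -2.74 to -2.89. Over the 9 bins, the female means ran from 0 ppm (chromosome 11) to 629 ppm (chromosome 17). Bins were tested if at least 3 of the 9 libraries had peaks there. The bin on chromosome 11 met this through the E10.5 lists alone, where its share is high. The bins on chromosome 7 had peaks in fewer than 3 male and female lists, so they too needed the E10.5 lists to be tested. Their calls are not independent of that filter. A single smallest peak amounts to 74.4, 1126 and 42.6 ppm in male replicates 1 to 3. The E10.5 mean of each of these 9 bins (574 to 893 ppm) is less than 1 such peak in male replicate 2, so a zero in that list was not informative there. Without that list, the bins on chromosomes 3, 11, 19 and 8 (80000001) were still called (adjusted p = 0.0473 for each), and a bin on chromosome 11 (84000001 to 85000000) was called in addition, with 1017, 3396 and 798 ppm at E10.5, none in male replicates 1 and 3, and 1188 ppm in the list left out.

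H3K27me3 was unevenly placed over the autosomes at both stages. Relative to its length, chromosome 19 carried the most at E10.5, at 2.1 ± 0.444 times its share of the genome (SD, n = 3), followed by chromosome 11 at 1.73 ± 0.277. That order rested on E10.5 replicate 2: without it chromosome 11 was first at 1.89 ± 0.0120 and chromosome 19 next at 1.84 ± 0.0483 (n = 2). Chromosomes 16 and 3 carried the least, at 0.557 ± 0.0390 and 0.563 ± 0.0395. In male cells chromosome 9 was highest at 1.82 ± 1.72, and this rested on male replicate 2, where it held 17.9% of the length (3.81 and 3.96% in male replicates 1 and 3). Chromosome 19 followed at 1.73 ± 0.0777, and chromosomes 16 and 14 were lowest at 0.444 ± 0.0238 and 0.467 ± 0.169. Over male replicates 1 and 3, chromosomes 5 and 11 were highest (1.87 ± 0.0756 and 1.77 ± 0.171, SD, n = 2), and chromosomes 16 and 3 lowest (0.430 ± 0.0086 and 0.498 ± 0.0682). The relative share went with the number of protein-coding genes per Mb across the 19 autosomes, with Pearson's r of 0.675, 0.585 and 0.703 at E10.5 and 0.546, 0.232 and 0.652 in male replicates 1 to 3. These correlations are descriptions within each list, and the chromosomes are not independent replicates.

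**Figure D5:**
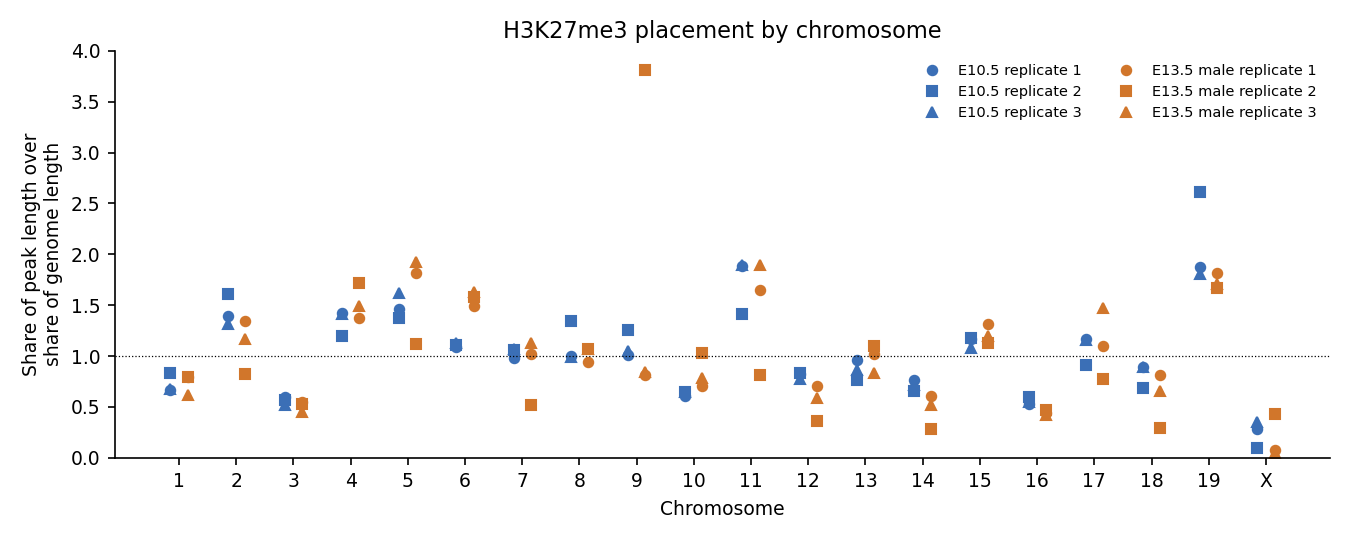
Share of covered H3K27me3 length on each chromosome divided by the share of genome length on it, for the 6 lists; the dotted line at 1 is an even spread. Chromosomes 6 and 10 are higher in all 3 male lists than in any E10.5 list, and chromosomes 12, 14 and 16 are lower. The single high point on chromosome 9 is male replicate 2.

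Chromosome 6 was the only one of 20 chromosomes (19 autosomes and X, 5% called) whose change in share passed the test. It held 6.15, 6.28 and 6.39% of the length at E10.5 and 8.45, 8.94 and 9.21% in male lists, with no overlap. Lack of overlap was not particular to it. Shares did not overlap on chromosomes 10 (higher in male lists), 12, 14 and 16 (lower) either. Those changes were not called with all lists (adjusted p = 0.14, 0.14, 0.14 and 0.072 in limma). The change on chromosome 6 was 0.49 ± 0.077 (log2 of percent + 0.1, SE), with an adjusted p of 0.00463 in limma. It was the same size without male replicate 2 (0.49, adjusted p = 0.00916). The call was lost when only the 6 libraries were fitted (adjusted p = 0.0609) and with peaks of a score of at least 20 (adjusted p = 0.0727). As a share of the genome, chromosome 6 is 5.66%. E13.5 female lists held 7.37, 7.37 and 6.93% there, also above every E10.5 list. In the same limma fit, neither male against female (adjusted p = 0.112) nor female against E10.5 lists (adjusted p = 0.321) was called on this chromosome.

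The change on chromosome 6 was not spread evenly, and the bins that follow were picked after their values were seen. Of the 150 bins of 1 Mb on chromosome 6, 51 had a higher mean share in male lists and 74 a lower one. The 3 bins that added most, starting at 114000001, 47000001 and 52000001, made up 2.73 of the 4.60 percentage points gained over the 51 bins, and the 74 bins with a lower share summed to -2.01, for a net of 2.59. Without male replicate 2 the 3 largest were those from 114000001, 83000001 and 47000001, with 2.95 of 4.32 points gained. The bin from 114000001 held a mean of 0.481% of the list at E10.5 and 1.62% in male cells, and the bin from 47000001 held 0.269 and 1.28%. In kb, male lists were below the 2 longer E10.5 lists in these bins, and male replicates 1 and 3 were above E10.5 replicate 2. The bin from 114000001 had 127, 2.68 and 239 kb in E10.5 lists and 37.3, 1.61 and 92.8 kb in male lists. The bin from 47000001 had 43.5, 9.80 and 42.1 kb and 24.5, 3.06 and 37.0 kb.

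Chromosome X carried little H3K27me3 in either group. Its share of length was 1.79, 0.610 and 2.20% at E10.5 and 0.484, 2.72 and 0.325% in male replicates 1 to 3, while X is 6.31% of the genome. The values overlapped, through male replicate 2, and the log2 change of -0.71 ± 0.71 (SE) was not called by limma (adjusted p = 0.495). Without that list X was lower in male cells by limma (log2 change -1.55, adjusted p = 0.0304), and chromosomes 16 and 9 were lower (-0.35, adjusted p = 0.0341, and -0.40, adjusted p = 0.043) and chromosome 5 higher (0.34, adjusted p = 0.0464). The E10.5 cells are of unstated sex, so on X the stage and the number of X chromosomes cannot be told apart. Y had at most 2 peaks in any list.

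Within autosomes, male replicates 1 and 3 had more of their peak length near the chromosome end than near the start, as did E10.5 lists. When each autosome was cut into 5 equal parts, the part nearest the start held 11.1 to 14.8% of autosomal length in these 5 lists and the part at the end 27 to 31.0%. In male replicate 2 they held 24.4 and 21.9%. Peaks also lay nearer to each other at E10.5: 72.3, 56.3 and 82.7% had a neighbour within 10 kb, against 56.4, 18.4 and 63.0% in male lists. The groups overlapped here, since E10.5 replicate 2 was at the level of male replicate 1.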

How the data were processed

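Per the submitters' processing notes, MACS2 2.1.0, BWA 0.7.5a, deepTools 3.3.0, SAMtools, Picard and CASAVA 1.8.4 were used with the build mm9. Their roles and settings were not given in the sources used here. Broad peaks were deposited by the authors as 1 list per library, called against an input per the peak names, with several score columns per peak. Column 9 exceeded column 8 in every peak, so the scale of the scores is unknown and they were used only to rank or filter peaks. Read depth is unknown, and the number of peaks per list limits the precision. The reference annotation at hand is of GRCm38, not mm9, so no genes are named by position and no sequences are shown.

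The groups came from the sample titles. Overlapping peaks were merged and 7 mitochondrial peaks were left out. Summing the end of the last peak on each chromosome gave the genome length, 2641.51 Mb. Covered length, median width and the share in wide peaks were tested between the groups with exact two-sided permutation tests and Benjamini-Hochberg adjustment. Shares of length were tested with limma 3.58.1 in R 4.3.3, on log2(ppm + 100) for 1-Mb bins with peaks in at least 3 of 9 libraries and on log2(percent + 0.1) for chromosomes. The limma fit was also run on simulated, normally distributed values without the filter. That run did not model lists without a peak in a bin, so it says nothing on bins empty in all male lists. Protein-coding genes per chromosome were counted in the RefSeq table of GRCm38.p6.

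Regions named are the 5 longest runs of 10-kb bins per class, with ties broken by the larger mean length in peaks in the group that holds them (at E10.5 for bins held by both), with and without male replicate 2, every called 1-Mb bin, every called chromosome, the 2 highest and 2 lowest autosomes per group, X, and the widest peak per list. The lists and the regions' rule were chosen with earlier results of these data known. Alternatives left out each list in turn and changed the bin size, the minimum length in a bin, the score minimum, the number of top-ranked peaks, the pseudocount, the filter, the libraries in the fit and the replicate block.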

Additional observations from a re-analysis of the deposited data

Results flagged for a closer look

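The 1-Mb bin of chromosome 18 from 66000001 to 67000000 drew attention because its change from E10.5 differed between the sexes at E13.5. The log2 share of H3K27me3 length in male lists minus that in female lists was -5.11 in limma (adjusted p = 0.00169), with lower values in 3 of 3 male lists than in any female list. The change of the female lists from E10.5 in this bin was 0.52 by the same fit (adjusted p = 0.925).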

How the results depend on the processing

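The differences in covered length, median width and share of length in peaks of 5 kb or wider kept their direction in every alternative, but joining peaks under 1 kb apart ended the separation in wide peaks (9.04% in male against 34.6% in E10.5 lists, exact permutation p = 0.2). The counts of 10-kb bins did not hold their size. E10.5-only bins ranged from 210 to 3624 when 1 list was left out, male-only bins from 3 to 20 and bins held by all lists from 9 to 246. The highest E10.5-only count came without E10.5 replicate 2, and the highest of the other counts without male replicate 2. With both replicate 2 lists left out, an alternative chosen after seeing the data, the counts were 3624, 20 and 486. A score of at least 20 gave 354 E10.5-only bins. The top 359 peaks of each list gave 1 E10.5-only bin, against 3 male-only bins and 6 held by all. The top 1703 without male replicate 2 gave 211, 25 and 65. Any overlap gave 22 male-only bins and 94 held by all, at least 50% of the bin gave 40, 0 and 0, and 50-kb bins gave 134 E10.5-only and 16 held by all.

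The number of called 1-Mb bins ranged from 0 to 26 when 1 list was left out, with 4 without male replicate 1, 2 without male replicate 3 and 26 without E10.5 replicate 2. It was 0 with a pseudocount of 10 ppm (188 at an unadjusted p under 0.05), 15 with one of 1000 ppm (all lower in male cells), 21 without the filter on low bins and 0 in the fit of 6 libraries. Called chromosomes ranged from 1 to 5 when 1 list was left out, and were 0 in the fit of 6 libraries (2 at an unadjusted p under 0.05) and 0 with a score of at least 20 (4 at an unadjusted p under 0.05). The change of the share of chromosome 9 reversed to -0.40 and that of chromosome 11 to 0.042 without male replicate 2 (ranges of -0.40 to 0.70 and -0.55 to 0.042 when 1 list was left out), and that of X to 0.14 with a score of at least 20. With the top 359 peaks the male minus E10.5 difference reversed to 0.092 kb in the region of chromosome 1 from 78200001, 0.063 kb in those of chromosome 9 from 91260001 and 91270001, and 0.0093 kb in that of chromosome 1 from 74850001. The causes were not tested.

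Whether replicate numbers pair the lists was not settled. Same-numbered deviations from the group means correlated weakly, at 0.040, 0.146 and 0.204 over 1743 bins. Pairs of unlike number ran from -0.218 to 0.192, the latter for E10.5 replicate 1 and male replicate 3. For each male list the same-numbered E10.5 list had the highest value. With the replicate block, limma called 1 bin of 1 Mb, lower in male cells, and 1 chromosome. The exact permutation p of each list value with the block was 0.25, the smallest it can be. Depth, which is unknown, and list length cannot be told apart from stage in the bin counts. The same holds for depth in the peak widths and the share in wide peaks.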
